A study of Mus musculus with 2 samples.

Results

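Egr/Nr4a positive cells were mouse CD8+ T cells in which at least 2 of the 4 transcripts Nr4a1, Nr4a2, Egr2 and Egr3 were found, with at least 1 UMI (unique molecular identifier, 1 counted RNA molecule) of each. The cells were selected on these 4 counts, so the levels of the 4 genes and the way they occur together are given as a description with no test. There were 1224 such cells, called members below, among 27258 cells kept after filtering. They were set against the 22917 kept cells with 0 UMIs of all 4 genes, called cells with none. A further 3117 kept cells had exactly 1 of the 4 genes and entered neither class.

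The series holds 2 droplet single-cell RNA libraries of murine CD8+ T lymphocytes, labelled HC and NC, with lymph node given as the source and tissue of both. Its design compares such cells with and without matrix electrical stimulation. The labels spell out neither HC nor NC and do not say which library was stimulated, and they give no strain, age, culture time or receptor trigger. With 1 library per group there was no replicate and no test between groups was possible. Every interval below is a 95% exact interval that covers counting error only, so a difference between HC and NC is a difference between 2 libraries.

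Nr4a1 and Nr4a2 encode orphan nuclear receptors, and Egr2 and Egr3 encode zinc finger transcription factors. In T cells all 4 are immediate early genes: antigen receptor signals through calcium, calcineurin and the MAP kinases switch them on within a short time, and their messenger RNAs are short-lived. They are also known for restraint: EGR2, EGR3 and the NR4A receptors take part in T cell tolerance and exhaustion, so cells in which they are found are often read as cells that met a recent receptor signal. How long ago any cell here was triggered was not measured, and the name recently triggered was not tested.

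The promoters of these genes are shown because members were defined by their joint appearance. Of 8 genes looked up in the RefSeq promoter table of build GRCm38.p6 (Nr4a1, Nr4a2, Nr4a3, Egr2, Egr3, Xcl1, Ccl3 and Ccl4), 6 had an entry. The 250 bases before the RefSeq start are given 5′ to 3′ for the genes of the rule that had an entry, with the first of 5 entries used for Egr2. Capitals mark matches, on either strand, to the CRE half-site TGACG, a sequence that cAMP-response-element-binding factors recognise, or to the EGR site GCGNGGGCG.
Nr4a1: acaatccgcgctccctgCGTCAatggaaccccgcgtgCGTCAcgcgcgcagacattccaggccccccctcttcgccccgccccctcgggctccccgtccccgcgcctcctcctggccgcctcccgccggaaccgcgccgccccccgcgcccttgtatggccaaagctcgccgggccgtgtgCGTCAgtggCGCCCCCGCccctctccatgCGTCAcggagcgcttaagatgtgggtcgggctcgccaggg
Nr4a2: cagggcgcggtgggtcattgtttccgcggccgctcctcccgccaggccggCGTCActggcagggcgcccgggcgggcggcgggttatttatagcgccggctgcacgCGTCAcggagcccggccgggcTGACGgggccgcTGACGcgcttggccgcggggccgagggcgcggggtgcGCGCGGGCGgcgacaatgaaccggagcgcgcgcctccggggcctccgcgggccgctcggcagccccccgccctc
Egr2: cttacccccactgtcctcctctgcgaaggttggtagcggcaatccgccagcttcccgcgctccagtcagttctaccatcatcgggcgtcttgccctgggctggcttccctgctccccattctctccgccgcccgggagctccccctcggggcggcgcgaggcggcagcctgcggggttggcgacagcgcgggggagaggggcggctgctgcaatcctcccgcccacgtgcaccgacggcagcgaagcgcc
These windows lie at chr15:101266596-101266845 on the plus strand (Nr4a1), chr2:57124004-57124253 on the minus strand (Nr4a2), and chr10:67535249-67535498 on the plus strand (Egr2). The RefSeq starts are not always those of GENCODE vM21: all 250 bases of the Nr4a1 window lie inside that annotation's range of the gene, chr15:101254269-101274795, and the last 24 bases of the Egr2 window do so too. The window of Nr4a3, of which 152 bases lie inside the gene, was searched but is not printed. Each of the 3 NR4A windows held 4 CRE half-sites. At least 1 such match was found in 17.8% of all 32851 windows of that length, and the share of windows with 4 was not counted. Nr4a1 and Nr4a2 each held 1 EGR site, which 4.70% of windows held. The Egr2 window held neither, nor an AP-1 site (TGANTCA, in 6.75% of windows) or a CArG box (in 1.47%). Of the secreted factors described below, the Xcl1 window held 1 and the Ccl3 window 2 matches to the NFAT core GGAAA, found in 55.6% of windows, and neither held a CRE half-site. The Nr4a2 window also held 1 NFAT core, not capitalised above, and those of Nr4a1, Nr4a3 and Egr2 held 0. A match is a run of letters and not a measured site.

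A cell was kept if it showed 500 genes or more and 1000 UMIs or more, with no more than 10% of its UMIs mitochondrial. Kept cells numbered 13617 of 15495 barcodes in HC and 13641 of 14798 in NC, with a median of 7425 UMIs in HC and 6898 in NC. The libraries shared 64 barcode sequences, carried by 2 HC members and 4 NC members, and by no member of both. Cd8a or Cd8b1, which encode the CD8 co-receptor, was found in 99.1% of HC members and 99.7% of NC members, and in 98.2% and 98.3% of cells with none. Over 22 markers of B cells, CD4 T cells, NK cells, myeloid, red and stromal cells, the summed level was 50.3 CPM (counts per 1000000 UMIs) in HC members and 43.0 in NC members, against 60.1 CPM in HC and 90.9 CPM in NC cells with none. In HC members 18 of the 22 markers were at 0 and in NC members 11, among them in both the B cell marker Ms4a1, the NK cell marker Ncr1 and the macrophage markers Csf1r, C1qa and Adgre1. Pecam1, which T cells also express, made up most of the sum, with 37.2 CPM in HC members and 33.2 CPM in NC members. Counted by cell, at least 2 B cell markers were found in 4 of 795 NC members and 24 of 11022 NC cells with none. In HC these were 0 of 429 members and 11 of 11895 cells with none. No kept cell type that should lack the 4 genes was at hand, so the share of UMIs from free RNA was not measured, and doublets were neither called nor removed. The part of free RNA and doublets in the results below was not tested.

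Members were rarer in HC. They made up 3.15% of kept cells in HC (429 cells, interval 2.86 to 3.46%), against 5.83% in NC (795 cells, 5.44 to 6.23%), a log2 ratio of -0.89 (-1.06 to -0.72) or 1.85-fold higher in NC. Cells with none were 11895 in HC and 11022 in NC. Cells just outside the threshold, with exactly 1 of the 4 genes, numbered 1293 in HC and 1824 in NC and carried a mean of 1.18 and 1.29 UMIs of the 4 genes. Cells just inside it, with exactly 2, numbered 276 and 511 and carried a mean of 3.54 and 3.48.

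Finding a rare transcript depends on how many molecules of a cell were counted, and members were deeper than the rest. Their median was 10466 UMIs in HC and 10967 in NC, against 7177 in HC and 6496 in NC cells with none. The share of members was therefore also taken within 5 equal groups of depth. In the shallowest group it was 0.943% in HC and 1.93% in NC, in the middle group 2.71% and 4.08%, and in the deepest 7.33% and 13.1%. HC was the lower library in each of the 5 groups. When each cell was thinned to 2000 UMIs, 99 of 13523 HC cells and 173 of 13508 NC cells still met the rule, or 0.732% and 1.28%, a log2 ratio of -0.81 (-1.18 to -0.44). A total of 94 HC cells and 133 NC cells were too shallow to be thinned. The share thus moved with depth in both libraries, and HC was the lower one at equal depth as well.

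**Figure D1:**
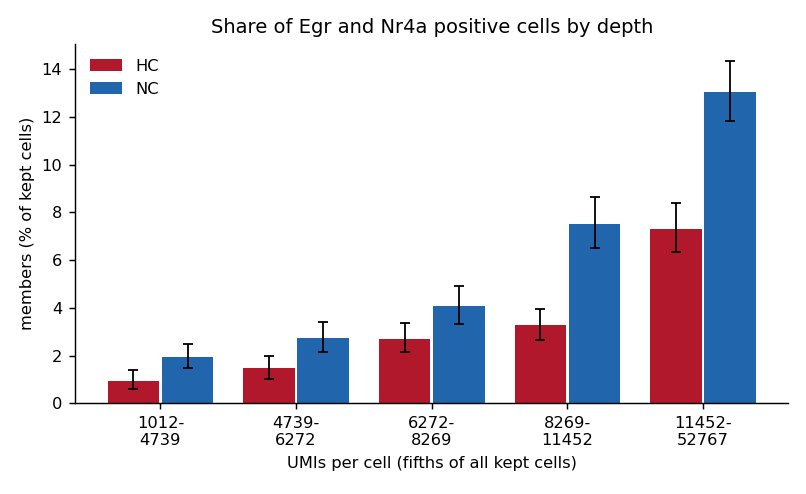
Share of kept cells that were members (vertical axis, %) in 5 equal groups of all kept cells by UMIs per cell (horizontal axis), HC bars left of NC bars, with 95% exact binomial intervals for counting error. The share climbed with depth in both libraries, to 7.33% in HC and 13.1% in NC, and the HC bar was the lower of each pair.

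Egr3 was the gene found in most members and Egr2 in the fewest. Egr3 (ENSMUSG00000033730, chr14:70077203-70082614) was found in 83.2% of HC members and 76.2% of NC members. Its level was 201 CPM in HC members and 158 CPM in NC members. Nr4a2 (ENSMUSG00000026826, chr2:57106830-57124003) was found in 62.5% of HC and 71.1% of NC members, at 109 CPM in HC and 148 CPM in NC. Nr4a1 (ENSMUSG00000023034) was found in 60.4% of HC and 55.6% of NC members, at 107 CPM in HC and 98.4 CPM in NC. Egr2 (ENSMUSG00000037868, chr10:67535475-67542188) was found in 40.6% of HC and 42.3% of NC members, at 47.8 CPM in HC and 48.0 CPM in NC. Among members, which were selected on these genes, the level was thus higher in HC for Egr3, lower for Nr4a2 and about equal for Egr2. Over all kept cells Egr3 was lower in HC, at 12.9 CPM against 19.7 CPM in NC. Nr4a1 (6.99 against 11.0 CPM), Nr4a2 (11.4 against 22.5 CPM) and Egr2 (3.15 against 6.05 CPM) were lower in HC too. Most positive cells carried few copies: among members with Egr2, 69.5% in HC and 70.5% in NC had exactly 1 UMI of it. The most Egr3 UMIs in a single member were 22 in HC and 24 in NC.

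The commonest combination was Nr4a2 with Egr3, in 88 HC members (20.5%) and 168 NC members (21.1%). All 4 genes were found in 47 HC members (11.0%) and 75 NC members (9.43%). Most members joined the families: 349 of the HC members (81.4%) and 639 of the NC members (80.4%) had at least 1 EGR and 1 NR4A gene. Only Egr2 and Egr3 were found in 40 HC and 66 NC members, and only Nr4a1 and Nr4a2 in 40 HC and 90 NC members. The median member held 4 UMIs of the 4 genes in both libraries. The level of each gene climbed with the number of the other 3 that were found. Egr3 stood at 4.38, 33.4, 148 and 470 CPM in HC cells with 0, 1, 2 and 3 of the other genes, and at 7.79, 33.9, 128 and 312 CPM in NC cells. Nr4a1 stood at 2.49, 18.3, 68.5 and 153 CPM in HC cells and at 3.26, 15.3, 67.6 and 190 CPM in NC cells in the same order.

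The genes that the rule did not use were then compared between members and cells with none, library by library. UMIs were summed over the cells of a class and divided by the class total, and genes with at least 5 CPM in either class were called at 1.5-fold. In HC 395 of 8774 genes were higher in members (4.5%) and 258 lower (2.94%), and in NC 594 of 8737 were higher (6.8%) and 329 lower (3.77%). In both libraries 292 of 8567 genes were higher (3.41%) and 137 lower (1.6%). The median log2 ratio over all genes was 0.03 in HC and 0.04 in NC. Because members were deeper, the classes were also weighted to the same spread of UMIs per cell: 195 genes were then higher and 47 lower in both libraries, so that the count of lower genes moved more with depth than that of higher ones.

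**Figure D2:**
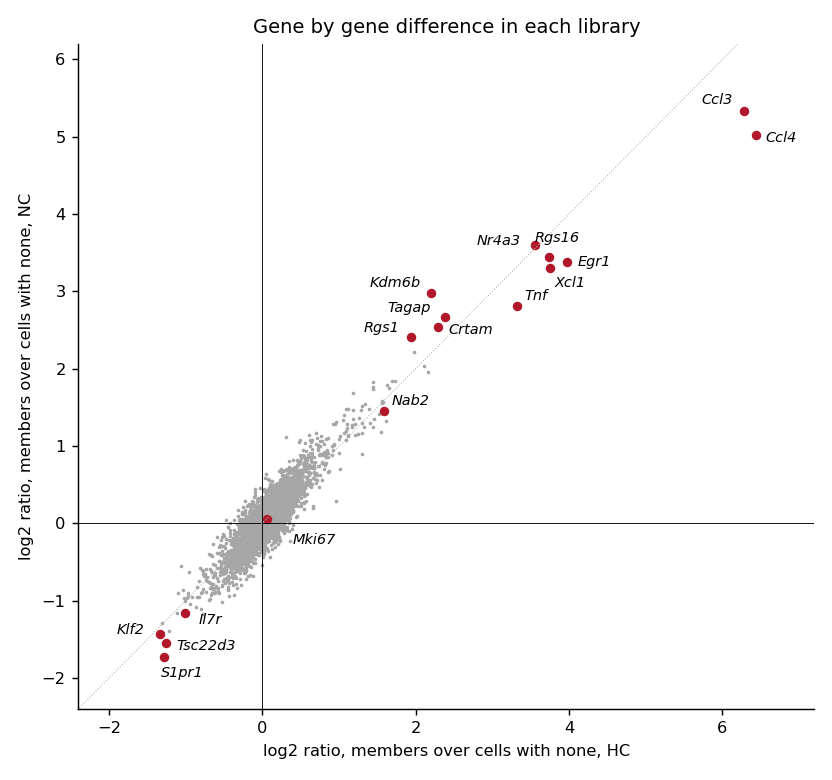
Log2 ratio of members over cells with none in HC (horizontal axis) and in NC (vertical axis) for the 4968 genes with at least 20 CPM in either class of both libraries, the 4 genes of the rule left out; red points are named genes and the dotted line marks equal ratios. Ccl3 and Ccl4 lie farthest out, above 5 in both libraries, while Klf2, S1pr1 and Tsc22d3 lie lowest of the labelled genes, between -1.26 and -1.73.

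Immediate early genes outside the rule were the first group. Of 27 such genes 21 were measured, 13 were at least 1.5-fold higher in members of both libraries and 1 lower. Egr1, the founding EGR factor, had 261 CPM in HC members and 198 CPM in NC members, against 16.6 CPM in HC and 19.1 CPM in NC cells with none. Its log2 ratio of members over cells with none was 3.97 (3.87 to 4.08) in HC and 3.38 (3.28 to 3.47) in NC. Nr4a3, the third NR4A receptor, had 25.4 CPM in HC and 36.9 CPM in NC members, against 2.17 and 3.05 CPM in HC and NC cells with none, a log2 ratio of 3.55 and 3.60. Fos, the partner of JUN proteins in the AP-1 factor, was scarce and steep at once, with 60 UMIs in HC members and 103 in NC members. It reached 11.6 CPM in HC and 10.4 CPM in NC members, against 0.334 and 0.624 CPM in HC and NC cells with none. Members carried 54.5% of all Fos UMIs of kept HC cells and 55.4% of those of NC, although they held 4.53% of all UMIs in HC and 8.59% in NC. Junb, Ier2 and Myc followed with smaller ratios: Junb 1.29 in HC and 0.90 in NC, Ier2 1.44 and 1.24, Myc 1.56 and 1.58. Of the 21 genes 3 were below 0 in both libraries, and Jun was the 1 past 1.5-fold lower. Jun had 31.6 CPM in HC and 31.0 CPM in NC members, against 49.1 and 49.2 CPM in HC and NC cells with none (log2 ratio -0.64 and -0.67). Klf6 (-0.45 and -0.55) and Ier3 (-0.18 and -0.28) were lower by less than 1.5-fold. At equal depth the Jun ratios came to -0.33 and -0.31, and those of Klf6 to -0.42 and -0.47.

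Among the gene lists, secreted factors had the highest median ratio. The list of cytokines and chemokines had 20 genes, of which 11 were measured in both libraries: 6 were higher in members of both and 1, Il16, was lower. The list's median log2 ratio of members over cells with none was 1.28 in HC and 1.80 in NC. Ccl4, an inflammatory chemokine, had 289 CPM in HC members and 768 CPM in NC members, against 3.32 and 23.5 CPM in HC and NC cells with none. That is a log2 ratio of 6.44 (6.27 to 6.62) in HC and 5.03 (4.96 to 5.10) in NC. Ccl3, its close relative, had 70.2 CPM in HC and 242 CPM in NC members, against 0.899 and 6.02 CPM in HC and NC cells with none, a log2 ratio of 6.29 (5.94 to 6.64) in HC and 5.33 (5.19 to 5.47) in NC. Xcl1, a chemokine that draws cross-presenting dendritic cells, had 196 CPM in HC and 1292 CPM in NC members, against 14.6 and 130 CPM in HC and NC cells with none, a log2 ratio of 3.75 and 3.31. Cells with none in NC thus came nearer to HC members for Xcl1 than for Ccl3 or Ccl4.

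Ifng, which encodes interferon gamma, had 14.3 CPM in HC members (74 UMIs) and 51.5 CPM in NC members (512 UMIs), against 1.01 and 2.07 CPM in HC and NC cells with none. Its log2 ratio was 3.82 (3.36 to 4.27) in HC and 4.64 (4.39 to 4.89) in NC. Tnf had 26.4 CPM in HC and 29.1 CPM in NC members, against 2.64 and 4.13 CPM in HC and NC cells with none. Lta, which encodes lymphotoxin alpha, had 22.6 CPM in HC and 33.5 CPM in NC members, against 5.72 and 7.18 CPM. Not every effector product went this way. Ccl5 had 93.7 CPM in HC and 100 CPM in NC members, against 109 and 153 CPM in HC and NC cells with none, and Ltb, the partner chain of lymphotoxin alpha, had log2 ratios of 0.26 and 0.03. Members, a small part of each library, carried 65.8% of the Ccl4 UMIs of HC and 62.8% of those of NC. For Ccl3 these shares were 61.6% and 64.9%, for Ifng 35.6% and 56.1% and for Xcl1 27.8% and 36.5%.

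Even so, many members had no UMI of these factors. Of the 5 genes Xcl1, Ccl3, Ccl4, Ifng and Tnf, 39.6% of HC members and 13.6% of NC members had 0, against 89.5% of HC and 65.5% of NC cells with none. With each cell thinned to 2000 UMIs these shares were 67.1% and 37.5% in members and 96.7% and 83.4% in cells with none. Ccl4 was found in 34.7% of HC and 59.2% of NC members, against 1.80% and 8.90% of HC and NC cells with none, and after thinning in 19.0% and 36.5% of members against 0.508% and 3.88%. Copies were unevenly held: the tenth of members with the most Ccl3 carried 94.0% of it in HC and 81.9% in NC. A single HC member held up to 52 and a single NC member up to 169 Ccl3 UMIs. At least 3 of the 5 genes at once were found in 53 HC members and 286 NC members.

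**Figure D3:**
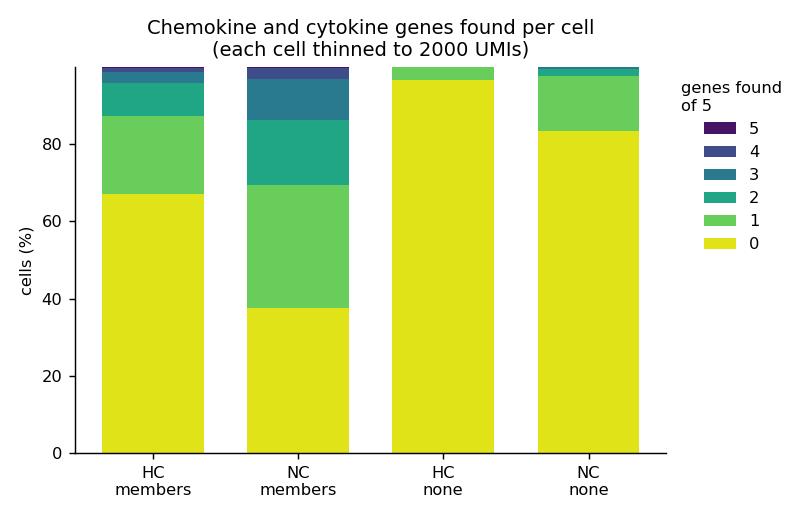
Share of cells (vertical axis, %) with 0 to 5 of the genes Xcl1, Ccl3, Ccl4, Ifng and Tnf found, each cell thinned to 2000 UMIs, for members of HC and NC and cells with none of HC and NC. Cells with 0 of the 5 genes made up 67.1% of HC members and 37.5% of NC members, and 96.7% and 83.4% of cells with none.

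Receptors and signalling genes made up the next group. Of 18 costimulatory receptors and their ligands 16 were measured in both libraries, and 9 were higher in members of both. Crtam, an adhesion receptor of activated cytotoxic T cells, had 26.03 CPM in HC and 77.2 CPM in NC members, against 5.34 and 13.2 CPM in HC and NC cells with none. Tnfrsf9, the 4-1BB receptor, had 102 CPM in HC and 170 CPM in NC members, against 37.8 and 47.8 CPM. Tnfsf14 (LIGHT) had the highest ratio of the list, 2.98 in HC and 3.17 in NC, from 48 and 119 UMIs in members. Of 15 genes of inhibitory receptors, their ligands and factors 8 were measured, 3 of them higher and 1 lower in both. Pdcd1, the PD-1 receptor, had 73.1 CPM in HC and 88.6 CPM in NC members, against 23.6 and 25.7 CPM in HC and NC cells with none. Cd274, its ligand, had log2 ratios of 1.64 and 1.92 and Cd160 of 1.06 and 1.40. Ctla4 went the other way, with 111 CPM in HC and 74.7 CPM in NC members, against 171 and 134 CPM. The receptor itself was little different: 5 markers of CD8 T cells, among them Cd8a, Cd8b1 and Cd3e, had ratios between -0.23 and 0.19 in HC and between -0.24 and 0.36 in NC.

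Some feedback inhibitors of receptor signals were higher too, and this varied by list. Of 9 dual-specificity phosphatases that switch off MAP kinases, 7 were measured in both libraries and 5 were higher in members of both, with a median log2 ratio of 0.99 in HC and 1.18 in NC. Dusp2, the most abundant of those named, had 412 CPM in HC and 444 CPM in NC members, against 141 and 196 CPM in HC and NC cells with none. Dusp4, Dusp5 and Dusp6 had ratios of 1.80, 1.32 and 1.65 in HC and 1.94, 1.24 and 1.74 in NC. Of 15 genes of EGR and NAB feedback and tolerance measured in both libraries 3 were higher in both and 0 lower. Nab2, one of that list, encodes a corepressor that EGR factors both induce and are held back by, and had 89.8 CPM in HC and 105 CPM in NC members, against 29.8 and 38.4 CPM. Rgs16, a brake on G protein signals from chemokine receptors, had 39.9 CPM in HC and 82.1 CPM in NC members, against 2.999 and 7.54 CPM. Rgs1 and Rgs2 had ratios of 1.94 and 2.11 in HC and 2.41 and 2.04 in NC. Of 17 genes of the NF-kB family and its feedback measured in both, 5 were higher in both, among them Nfkbid (2.26 and 2.05) and Rel (1.45 and 1.35). Of 14 genes of NFAT, calcium and their feedback 2 were higher in both, and the list's medians were 0.09 in HC and 0.03 in NC. Orai1, the pore of the store-operated calcium channel, had 105 CPM in HC and 118 CPM in NC members, against 35.7 and 40.045 CPM, and Nfatc1 had ratios of 1.20 and 1.28. Of 12 cytokine feedback genes 1 was higher and 2 were lower in both. Tagap (2.38 and 2.67) and the histone demethylase gene Kdm6b (2.19 and 2.98) completed the 12 genes with the highest ratios in both libraries among those with at least 20 CPM.

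Among transcription factors of effector cells, 3 of 13 measured were higher in members of both libraries, namely Irf8, Tbx21 and Bhlhe40. Irf8 had 109 CPM in HC and 119 CPM in NC members, against 40.2 and 35.2 CPM in HC and NC cells with none. Tbx21, which encodes T-bet, had 59.0 CPM in HC and 48.8 CPM in NC members, against 19.2 and 19.6 CPM. Of 13 cytotoxic genes measured 2 were higher in both, Prf1 (perforin; ratio 1.73 in HC and 1.84 in NC) and Serpinb9 (1.18 and 1.35). Gzmb, the granzyme B gene, had 481 CPM in HC and 282 CPM in NC members, against 352 and 207 CPM, a ratio of 0.45 in both, which came to 0.06 and 0.03 at equal depth.

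Growth and division genes parted. All 21 ribosome assembly genes had ratios above 0 in both libraries and 10 were past 1.5-fold in both. Nolc1 was an example, with 126 CPM in HC and 198 CPM in NC members, against 59.8 and 88.5 CPM. The median of that list was 0.55 in HC and 0.76 in NC, and 0.34 and 0.44 at equal depth. Division genes were not set apart: 0 of 30 were past 1.5-fold, and Mki67 had 543 CPM in HC and 365 CPM in NC members, against 521 and 352 CPM in HC and NC cells with none. At equal depth the median of the division genes moved from 0.08 to -0.09 in HC and from 0.11 to -0.28 in NC. Mki67 came to -0.09 in HC and -0.36 in NC.

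Genes of resting and recirculating T cells were lower in members. Of 12 quiescence genes 5 were lower in both libraries and 0 higher, with a median log2 ratio of -0.59 in HC and -0.71 in NC, and of 17 naive and memory genes 5 were lower and 1 higher. At equal depth the medians of the quiescence list came to -0.45 in HC and -0.41 in NC, inside 1.5-fold, and those of the naive and memory list to -0.16 and -0.30. Klf2 and Il7r stand in both lists. Klf2, the factor that keeps T cells quiescent and in circulation, had 207 CPM in HC and 169 CPM in NC members, against 522 and 456 CPM in HC and NC cells with none. Its log2 ratio was -1.33 (-1.42 to -1.24) in HC and -1.43 (-1.50 to -1.36) in NC. S1pr1, the exit receptor that KLF2 drives, had 24.9 CPM in HC and 17.0 CPM in NC members, against 60.4 and 56.3 CPM. Il7r, the interleukin 7 receptor chain, had 130 CPM in HC and 123 CPM in NC members, against 262 and 275 CPM. Tsc22d3 (-1.26 and -1.55), Pik3ip1 (-1.31 and -1.29), Klf3 (-1.21 and -1.40) and Txnip (-1.10 and -0.90) were lower in both as well. At equal depth Klf2 came to -1.13 in HC and -1.23 in NC and S1pr1 to -0.97 and -1.36, while Txnip came to -0.76 and -0.51. Interferon-induced genes, whose medians were -0.30 in HC and -0.48 in NC, came to -0.03 and -0.07 at equal depth.

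**Figure D4:**
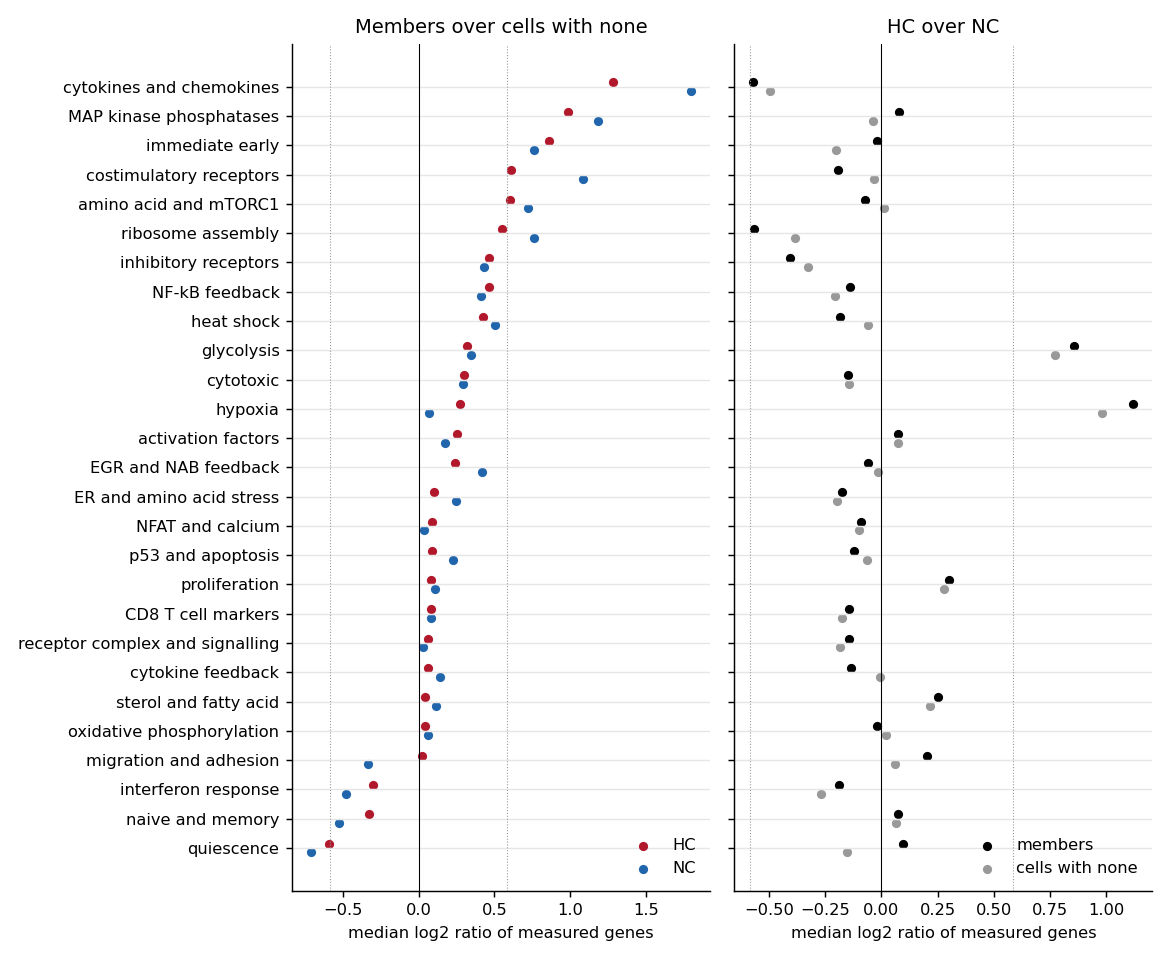
Median log2 ratio of the measured genes of each gene list (horizontal axes), for members over cells with none on the left (HC red, NC blue) and for HC over NC on the right (members black, cells with none grey); dotted lines mark 1.5-fold. Cytokines and chemokines lie highest on the left at 1.28 in HC and 1.80 in NC, and hypoxia and glycolysis highest on the right, at 1.12 and 0.86 in members.

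Levels were also set out by the number of the rule's genes found in a cell. Across cells with 0, 1, 2, 3 and 4 of the rule's genes, Ccl4 stood at 3.32, 34.1, 194, 346 and 693 CPM in HC and at 23.5, 129, 512, 1054 and 1736 CPM in NC. Egr1 stood at 16.6, 65.4, 177, 368 and 498 CPM in HC and at 19.1, 57.0, 131, 277 and 438 CPM in NC. For Ccl4 and Egr1, cells with a single gene of the 4, left out of both classes, therefore lay between them. Such cells may mix cells in which another of the genes was missed with cells that lacked it. A level in between therefore cannot show a graded state of single cells. These cells were also deeper than cells with none, with a median of 9271 UMIs in HC and 8775.5 in NC. Xcl1 flattened in NC, at 130, 574, 1288, 1378 and 1069 CPM, and stood at 14.6, 91.3, 188, 157 and 322 CPM in HC. Klf2 ran the other way to 3 genes, at 522, 379, 240, 133 and 186 CPM in HC and 456, 295, 190, 127 and 142 CPM in NC. Mki67 stayed between 521 and 568.5 CPM in HC and between 330 and 374 CPM in NC over all 5 classes.

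**Figure D5:**
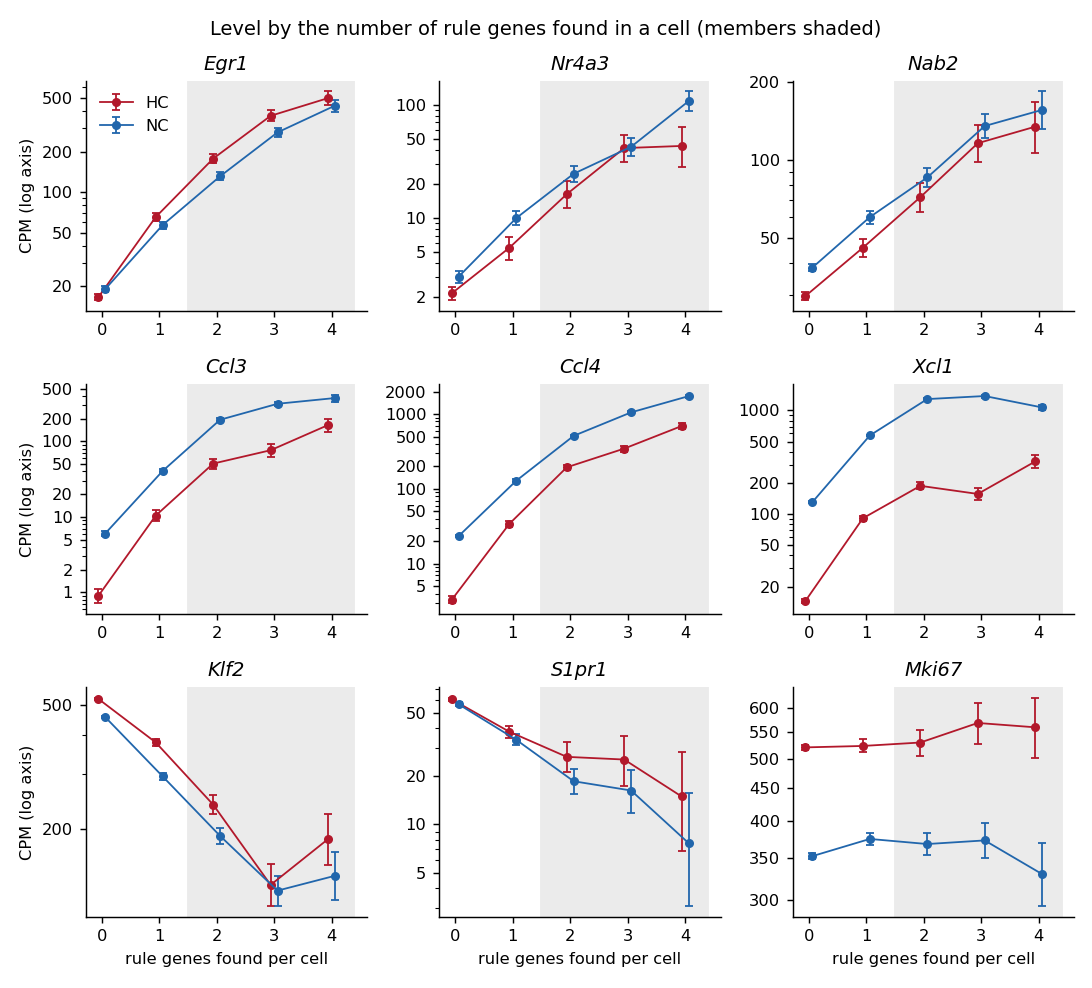
Level of 9 genes (vertical axes, CPM, log scale) in cells with 0 to 4 of the genes Nr4a1, Nr4a2, Egr2 and Egr3 found (horizontal axes), for HC (red) and NC (blue), with 95% Poisson intervals for counting error; members are shaded. Egr1 and Ccl4 climbed at each step in both libraries, Klf2 was lowest with 3 genes found, and Mki67 stayed between 330 and 568.5 CPM.

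The RNA levels of secreted factors differed between members that carried different families, and secretion itself was not measured. For Ccl3 the EGR pair was the higher of the pairs in HC and the lower in NC. Ccl3 had 82.9 CPM in HC members with both families, 27.4 CPM in those with the EGR pair alone and 13.9 CPM in those with the NR4A pair alone. In NC these levels were 260 CPM with both families, 51.6 CPM (36.4 to 71.2) with the EGR pair alone and 234 CPM (207 to 263) with the NR4A pair alone. Xcl1 in NC had 1278 CPM with both families, 431 CPM with the EGR pair alone and 1898 CPM with the NR4A pair alone, and Ifng 51.6, 5.58 and 78.3 CPM. For the EGR pair in NC 3 UMIs make 4.19 CPM, so its Ifng level rested on very few UMIs. A single NC member held up to 83 Ifng UMIs, and the tenth of NC members with the most held 98.0%. The Ifng difference between the pairs may thus come from few cells, which was not tested. Egr1 was high wherever an EGR gene was, with 214 CPM in NC members with both families and 234 CPM with the EGR pair alone, against 73.3 CPM with the NR4A pair alone. In HC the pairs rested on 40 cells each, with 13 Ccl3 UMIs for the EGR pair and 8 for the NR4A pair, and the intervals of Ccl3 in these pairs overlapped.

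HC and NC members were also compared directly. Of 8792 genes 390 were at least 1.5-fold higher in HC members (4.44%) and 394 lower (4.48%), and in cells with none 164 of 8680 were higher in HC (1.89%) and 71 lower (0.818%). The median log2 ratio over all genes was -0.03 in both classes. At 5 CPM the HC members hold few UMIs of a gene, and with a floor of 20 CPM 129 genes were higher and 170 lower. Over all genes the lowest ratio of HC over NC in members was that of Xcl1, and the highest was 5.97, for a gene not named here. The chemokines Xcl1, Ccl3 and Ccl4 ran the same way among members and among cells with none. Xcl1 had a log2 ratio of HC over NC of -2.72 (-2.82 to -2.63) in members and -3.16 (-3.24 to -3.08) in cells with none. Ccl3 had -1.79 (-1.95 to -1.63) in members and -2.74 (-3.09 to -2.41) in cells with none, and Ccl4 -1.41 (-1.49 to -1.33) and -2.83 (-3.00 to -2.65). For these 3 chemokines the gap between the libraries was thus narrower among members. The intervals did not overlap, but they count UMIs as if each were independent, and few cells held most of them. The tenth of members with the most held 82.3% of Xcl1, 94.0% of Ccl3 and 79.7% of Ccl4 in HC. In NC it held 65.0%, 81.9% and 67.6% in the same order. Ifng had the wider gap in members, -1.85 (-2.22 to -1.50) against -1.03 (-1.40 to -0.67). Few cells carried it: 23 HC members and 90 NC members had a UMI, with up to 83 of the 512 UMIs in a single NC member. After thinning to 2000 UMIs its ratio in members was -0.33, inside 1.5-fold. Crtam (-1.57), Nrgn, which encodes the calmodulin-binding protein neurogranin (-1.48), and Cd160 (-1.40) were also lower in HC members.

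Other genes that were higher in members leaned either way between the libraries. Over the 21 measured immediate early genes the median HC over NC ratio in members was -0.02, with 9 genes above 0 and 12 below. Past 1.5-fold 1 gene, Ier3 (0.59), was higher in HC members and 0 were lower, where over all genes 4.44% were higher and 4.48% lower. Ier3 was not higher in members than in cells with none, and its HC over NC ratio came to -0.65 after thinning. Egr1 was 0.40 (0.30 to 0.50) in members and -0.20 (-0.30 to -0.10) in cells with none, and Junb 0.47 (0.38 to 0.56) and 0.07. Neither reached 1.5-fold in members, and Egr1 came to 0.052 without cells with Mki67 or Top2a and to -0.053 after thinning. Lower in HC members were Rgs16 (-1.04), Cd274 (-0.84), Rgs1 (-0.77) and Tnfrsf9 (-0.73), and Nr4a3 (-0.54) and Kdm6b (-0.49) fell short of 1.5-fold. Tnf was -0.14 (-0.44 to 0.16) in members and -0.64 (-0.88 to -0.41) in cells with none. Dusp2 was -0.11 and -0.47. Among the rule's own genes Egr3 had a ratio of 0.35, Nr4a1 0.12, Egr2 0.00 and Nr4a2 -0.44 in members.

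Of the gene lists, hypoxia and glycolysis had the highest medians of HC over NC in members. Most genes called higher in HC members stood outside these lists and were not grouped. Division genes (29 of 30 above 0, median 0.30) and sterol and fatty acid genes (18 of 20, median 0.25) leaned toward HC by less. Of 17 glycolysis genes 16 were at least 1.5-fold higher, with a median log2 ratio of 0.86, against 0.77 and 13 genes in cells with none. All 12 measured hypoxia genes were higher, with a median of 1.12, against 0.98 in cells with none. Bnip3, a mitophagy receptor gene that hypoxia induces, had 59.2 CPM in HC members and 9.05 CPM in NC members (ratio 2.71, against 2.16 in cells with none). Slc16a3, the lactate exporter MCT4, had 82.3 CPM in HC and 21.9 CPM in NC members, a ratio of 1.91. Slc2a3, a glucose transporter, had 95.2 CPM in HC and 38.1 CPM in NC members, a ratio of 1.32 (1.13 to 1.52) in members and 0.65 (0.58 to 0.72) in cells with none. H2-Ab1, a class II chain of the major histocompatibility complex, had 48.0 CPM in HC and 8.04 CPM in NC members, against 36.7 and 9.10 CPM in HC and NC cells with none. Among B cell markers, Cd79b had 11.95 CPM in HC and 8.04 CPM in NC members, Igkc had 5 UMIs in HC and 7 in NC members, and Cd79a and Ms4a1 were at 0 in HC members. Their part in the H2-Ab1 difference was not tested. Ribosome assembly genes were lower in HC members, with a median of -0.57 and 10 of 21 past 1.5-fold, against -0.38 and 1 of 21 in cells with none. Nop58, a box C/D nucleolar protein, had 119 CPM in HC and 220 CPM in NC members, a ratio of -0.89 in members and -0.48 in cells with none.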

How the data were processed

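Single cells of both libraries were captured with the 10x 3' v3.1 kit, per the labels' protocols. The authors deposited raw UMI counts per gene and barcode; Cell Ranger 6.1.2 is named in the file headers, and Cell Ranger 5.0.0, Seurat 3.2.3 and build mm10 in the submitters' processing notes. Of 32285 features 32235 were found in GENCODE vM21. The libraries held 116897716 UMIs in HC and 117408492 in NC. Kept cells had at least 500 genes, at least 1000 UMIs and at most 10% mitochondrial UMIs. Members, gene lists and tests were chosen with earlier results of these data known.

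Counts were summed per library and class and given as CPM with exact Poisson 95% intervals, shares with Clopper-Pearson intervals, and ratios of summed counts with exact binomial intervals on the log2 scale. Cells of 1 library are not replicates, so no p-value was computed. Ratios are of members over cells with none and of HC over NC. A gene was measured with at least 5 CPM in either class and called at 1.5-fold. Thinning drew 2000 UMIs per cell, and equal depth used 10 strata of UMIs. In ratios of genes a class count of 0 was set to 3 UMIs. The main comparisons took no ratio where the other count was then 3 UMIs or fewer, and the alternatives had no such limit.

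Named genes were the 4 of the rule, the 12 highest and 12 lowest ratios of either kind among genes with at least 20 CPM, and the leading genes of 28 lists; the immediate early, cytokine and other cell type lists could be named in full. The 12 of each kind leave out mitochondrial, ribosomal protein, predicted and receptor segment genes. Python 3.11.15 with numpy 2.4.6, scipy 1.17.1 and pandas 2.3.3 was used, with edgeR 4.0.16 and DESeq2 1.42.0 in R 4.3.3 for scaling factors alone. Scripts were tested on simulated data.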

Additional observations from a re-analysis of the deposited data

Results flagged for a closer look

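Barcodes outside the comparisons also included some that met the rule on the 4 genes. Among barcodes left out by the cell filter, most of them for mitochondrial UMIs, 4 of 1878 in HC and 9 of 1157 in NC had at least 2 of the 4 genes, or 0.213% and 0.778%, where a count of 0 would have allowed 0.160% and 0.259%. Any count above 3 passes that limit. The exact intervals of the shares, 0.0581 to 0.544% in HC and 0.356 to 1.47% in NC, overlapped.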

How the results depend on the processing

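No paired analysis was possible because each group has 1 library and the labels carry no replicate numbers. Over 10 alternatives the log2 ratio of HC over NC for the share of members kept its direction, at -0.60 when 1 of the 4 genes was enough and between -0.77 and -0.96 otherwise. Counts of genes moved more. Genes higher in members of both libraries (292) numbered 146 with 1 gene enough, 735 after thinning to 2000 UMIs, 597 without cells with Mki67 or Top2a, 153 at 20 CPM and 98 at 2-fold. Genes lower in both (137) numbered 28, 409, 441, 65 and 15 under the same settings, 47 at equal depth, 219 as a mean over cells and 262 at 1 CPM. Genes higher in HC members (390) numbered 740 with 3 genes required, 249 with 1, 2795 after thinning, 1207 without cells with Mki67 or Top2a, 129 at 20 CPM, 869 at 1 CPM and 94 at 2-fold. Genes lower in HC members (394) numbered 869, 197, 2222, 1862, 170, 826 and 55 in that order. Thinning left 99 HC and 173 NC members and dropping cells with Mki67 or Top2a 73 and 184, so single genes then rested on few UMIs. A gene with no UMI in a class was also given 3 UMIs there, whatever the other count. A gene absent from HC members could thus be called higher in HC. How many calls arose this way was not counted. The counts of genes after thinning and without cells with Mki67 or Top2a therefore do not measure how many genes differed.

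Of 281 gene ratios past 1.5-fold, 169 stayed past it under every alternative run and 25 turned under at least 1, and 6 of 16 list medians stayed past it with 0 turned. Members over cells with none turned in HC for Asns (-0.039) and Ifi213 (0.039) at equal depth, Cdkn1a (-0.16), Hsph1 (-0.49) and Trib3 (0.0051) without cells with Mki67 or Top2a, Foxo3 (0.28), P4ha1 (-0.094) and Trib3 (1.06) after thinning, and Slc7a5 (-0.015) with 3 genes required. In NC they turned for Cdkn1a (-0.19), Ifi213 (0.14), Itgae (0.077), Slc2a1 (-1.78) and Slc7a5 (-0.79) after thinning and Iigp1 (0.091) at equal depth. HC over NC in members turned for Batf3 (-0.78), Foxo3 (1.39), Ier3 (-0.65), P4ha1 (-0.31), Pdia4 (0.028), Rrp9 (0.27), Spry2 (0.81), Tnfsf10 (1.39) and Tob1 (-0.78) after thinning, Il2 (0.26) with 3 genes required and Rcan3 (-0.60) without cells with Mki67 or Top2a. Many ratios after thinning rested on a few UMIs or on a count of 0 set to 3 UMIs. Foxo3 and Tnfsf10 shared the value 1.39 for HC over NC, which such counts can give. A change of sign after thinning is therefore not a measured reversal. The cause was not tested. Leaving out cells with 2 B cell markers, an alternative chosen after seeing the data, moved no count by 1.5 times.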

Other observations

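Il2ra, which encodes the high-affinity chain of the interleukin 2 receptor, was singled out after its values were seen. It had 58.4 CPM in HC members and 54.2 CPM in NC members, against 47.1 and 25.1 CPM in HC and NC cells with none. Its log2 ratio of members over cells with none was 0.31 (0.14 to 0.48) in HC and 1.11 (0.97 to 1.25) in NC. HC over NC was 0.11 (-0.10 to 0.31) in members and 0.91 (0.83 to 0.98) in cells with none, so the libraries lay closer in members than in cells with none.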
